A study of Mus musculus with 6 samples.

Results

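A set of 10 genes of the JAK-STAT signalling system was followed in mouse 4T1 mammary carcinoma cells: the Janus kinases *Jak1*, *Jak2* and *Tyk2*, the feedback inhibitors *Socs1*, *Socs2*, *Socs3* and *Cish*, the gp130-family receptor chains *Il6st* and *Osmr*, and the kinase *Pim1*. They were taken by gene name from a table of 19255 genes, and all 10 had a row. The table holds FPKM (mapped fragments per kilobase of exon, scaled to the total mapped in each library) from RNA-seq of 6 libraries, 3 from *Uba6*-null cells (sgUba6) and 3 from control cells (sgCtrl). UBA6 is an E1 enzyme that activates ubiquitin and the ubiquitin-like protein FAT10. By the study's methods both lines derive from Cas9-expressing cells of this line that received a guide RNA by lentivirus and were selected with puromycin, and the submitters label the control libraries WT or NTC and the others KO. The labels give the same treatment text, naming the *Uba6* guide and a CRISPR/Cas9 vector, for all 6 libraries, and they name no cytokine treatment for either group. They do not state whether the 3 libraries of a group came from separate cultures or clones, and any p-value given here is relative to library-to-library spread that may be technical.

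Cytokines of the interleukin-6 family signal through receptor chains that include gp130, the product of *Il6st*. The chains hold Janus kinases on their inner side, and when a ligand draws the chains together the kinases phosphorylate them and then the STAT transcription factors, which enter the nucleus. SOCS proteins and CISH are made in response to STATs and bind the kinases or the receptors to end the signal, and PIM1 is a serine/threonine kinase encoded by a STAT-induced gene. In mammary tissue JAK2 and STAT5 carry the prolactin signal of lactation, whereas leukaemia inhibitory factor and STAT3 act in the involution that follows weaning.

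*Uba6* itself was at 10.9, 12.1 and 12.0 FPKM in the sgUba6 libraries, against 16.4, 16.4 and 17.0 FPKM in the sgCtrl libraries. Its mRNA was lower in every sgUba6 library (log2 fold change -0.49, SE 0.06, limma adjusted p = 0.000601), and it was still present in all of them. By its methods the study judged the knockout by western blot of UBA6 protein, which mRNA levels do not measure. Epithelial markers summed to 2680 to 2739 FPKM in sgUba6 and 2636 to 2703 FPKM in sgCtrl, with 9 of 10 markers in the table and most of the sum in keratins. Within it *Epcam* (log2 fold change 0.90), *Cldn4* (0.75) and *Cldn7* (0.63) were higher in sgUba6, *Krt8* (-0.22) and *Krt14* (-0.29) were lower, and 4 did not pass. Of 10 leukocyte markers 4 were in the table, and they summed to 17.1 to 18.5 FPKM in sgUba6 against 7.73 to 8.69 FPKM in sgCtrl, most of it *Cd68*. The leukocyte marker *Ptprc* (CD45) was at most 0.0195 FPKM in any library. Of 10 fibroblast and endothelial markers 4 were in the table, with sums of 5.51 to 6.72 FPKM in sgUba6 against 3.04 to 3.21 FPKM in sgCtrl, most of it *Pdgfra*, while *Dcn* was at most 0.0317 FPKM. *Pecam1*, of endothelium, was at 0.142, 0.00222 and 0.0599 FPKM in sgUba6, against 0.182, 0.214 and 0.147 FPKM in sgCtrl. The FPKM carry no counts, but the spacing of their low values, if 2 steps stand for 1 fragment, would correspond to about 16840000, 17990000 and 17640000 fragments in the sgUba6 libraries and 17890000, 18380000 and 15150000 in the sgCtrl libraries.

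All 10 genes passed the filter on low values (0.5 FPKM or more in at least 3 of the 6 libraries), as did 12190 genes in all. Of these, 6, namely *Jak1*, *Jak2*, *Tyk2*, *Socs2*, *Socs3* and *Pim1*, were higher in sgUba6 cells at a limma adjusted p under 0.05, none was lower, and 4 did not pass. This 60.0% stands against 47.4% of all genes tested that changed in either direction, so a changed gene was common in these cells. By direction, 24.7% of all genes were higher and 22.7% were lower in sgUba6. The median log2 fold change of the 10 genes was 0.29, against 0.01 over all genes tested. In 8 of the 10 genes the 3 libraries of one group all lay beyond those of the other (7 higher in sgUba6, 1 lower), which was so for 57.6% of all genes tested. Fold changes are differences of log2(FPKM + 0.5), which understates the change of genes near 0.

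**Figure D1:**
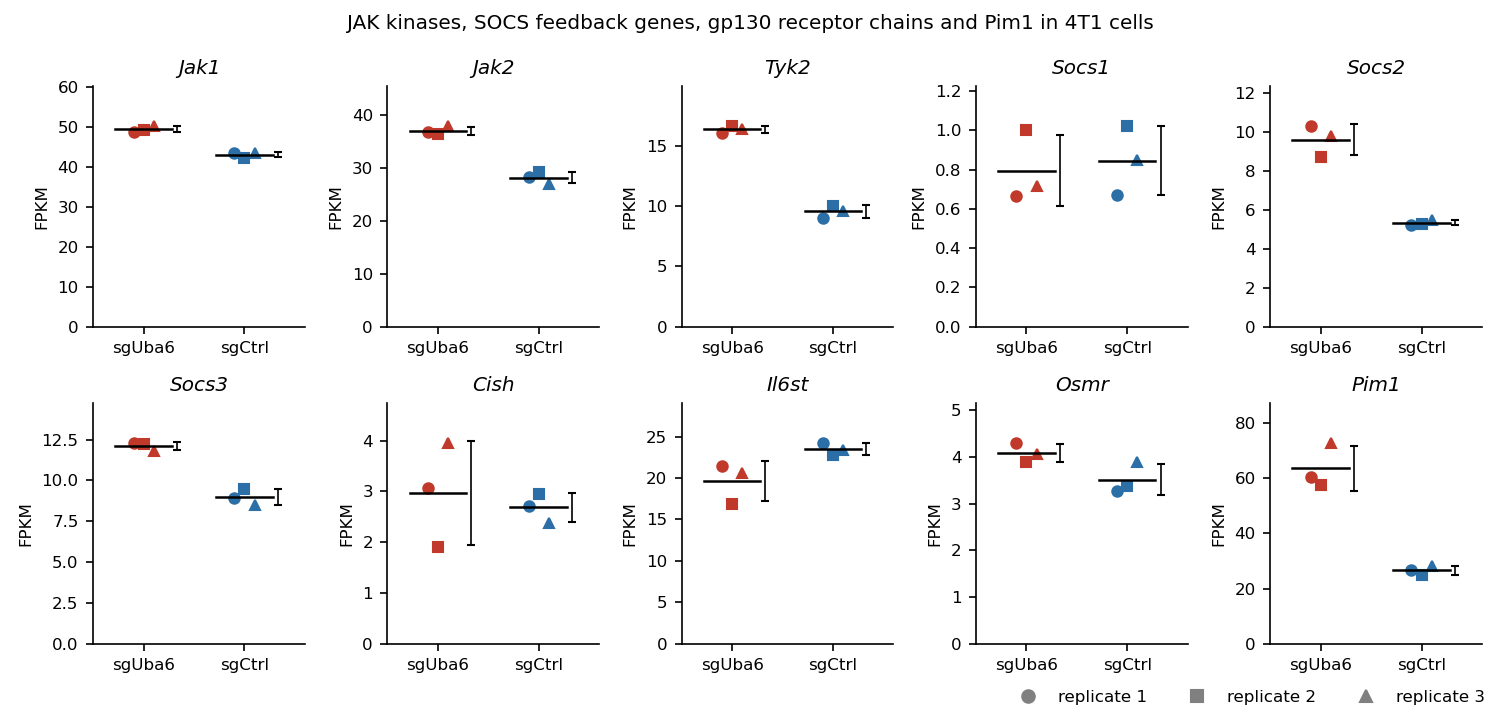
FPKM of the 10 genes in each library, sgUba6 left of sgCtrl in every panel. Points are libraries, marker shape gives the replicate number, lines are group means and bars are SD (n = 3 each). The groups separate for *Jak1*, *Jak2*, *Tyk2*, *Socs2*, *Socs3* and *Pim1*, all higher in sgUba6, for *Il6st*, lower in sgUba6, and by a thin margin for *Osmr*, whereas *Socs1* and *Cish* overlap.

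JAK1 and JAK2 are the kinases most used by gp130 receptors, and TYK2 pairs with JAK1 on the type I interferon receptor and with JAK2 on the IL-12 receptor. All 3 kinase genes rose in sgUba6 cells, by unequal amounts. *Tyk2* (ENSMUSG00000032175, GRCm38 chr9:21104068-21131243, minus strand) was at 16.07, 16.62 and 16.36 FPKM in sgUba6, against 8.996, 10.02 and 9.603 FPKM in sgCtrl. Its log2 fold change was 0.75 (SE 0.06, 95% interval 0.61 to 0.88, limma adjusted p = 9.05e-05), or 1.71 times the control mean. The lowest sgUba6 library thus stood well above the highest sgCtrl library, and the spread within each group was small. *Jak2* (ENSMUSG00000024789, chr19:29251828-29313080, plus strand) was at 36.7, 36.5 and 37.9 FPKM in sgUba6, against 28.3, 29.2 and 27.0 FPKM in sgCtrl. This is 1.31 times the control mean, with a log2 fold change of 0.39 (SE 0.04, 95% interval 0.28 to 0.50, limma adjusted p = 0.000533). *Jak1* (ENSMUSG00000028530, chr4:101152367-101265282, minus strand) had the smallest difference of the 3. It was at 48.8, 49.2 and 50.2 FPKM in sgUba6, against 43.4, 42.3 and 43.5 FPKM in sgCtrl. Its log2 fold change was 0.20 (SE 0.04, 95% interval 0.11 to 0.28, limma adjusted p = 0.00388), or 1.15 times the control mean, and the groups did not overlap. In bulk RNA fewer cells of a type and less RNA per cell cannot be told apart, and this holds for every level given here.

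Since FPKM are scaled by gene length, the levels of the 3 kinase genes can be added. Their sum was 103 ± 1.51 FPKM in sgUba6 and 80.7 ± 0.693 FPKM in sgCtrl (SD, n = 3 each). Within that sum *Jak1* held 48.0%, 48.1% and 48.1% in the sgUba6 libraries, against 53.8%, 51.9% and 54.3% in the sgCtrl libraries. *Tyk2* held 15.9 ± 0.307% in sgUba6 and 11.8 ± 0.591% in sgCtrl. The share of *Jak1* was therefore lower in all 3 sgUba6 libraries (mean difference -5.25 percentage points), though its level was higher, and *Jak2* held 36.0 ± 0.320% in sgUba6 and 34.9 ± 1.08% in sgCtrl. With 3 libraries in each group an exact two-sided permutation test cannot give a p below 0.1, so no test is given for shares. *Jak3*, the kinase that pairs with the common gamma chain of lymphocyte cytokine receptors, was at 7.60, 8.25 and 9.21 FPKM in sgUba6, against 8.35, 8.31 and 6.99 FPKM in sgCtrl. Its groups overlapped and it was not called (log2 fold change 0.08, SE 0.10, limma adjusted p = 0.544). An antisense gene, 1700084C06Rik, overlaps *Tyk2* and was at 0.955 to 1.304 FPKM in sgUba6 and 0.969 to 1.328 FPKM in sgCtrl. *Raver2*, on the plus strand, likewise overlaps *Jak1* and was not analysed here. The library kits named by the labels and by the study's methods differ in whether they keep the strand, so reads of either pair cannot be told apart.

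**Figure D2:**
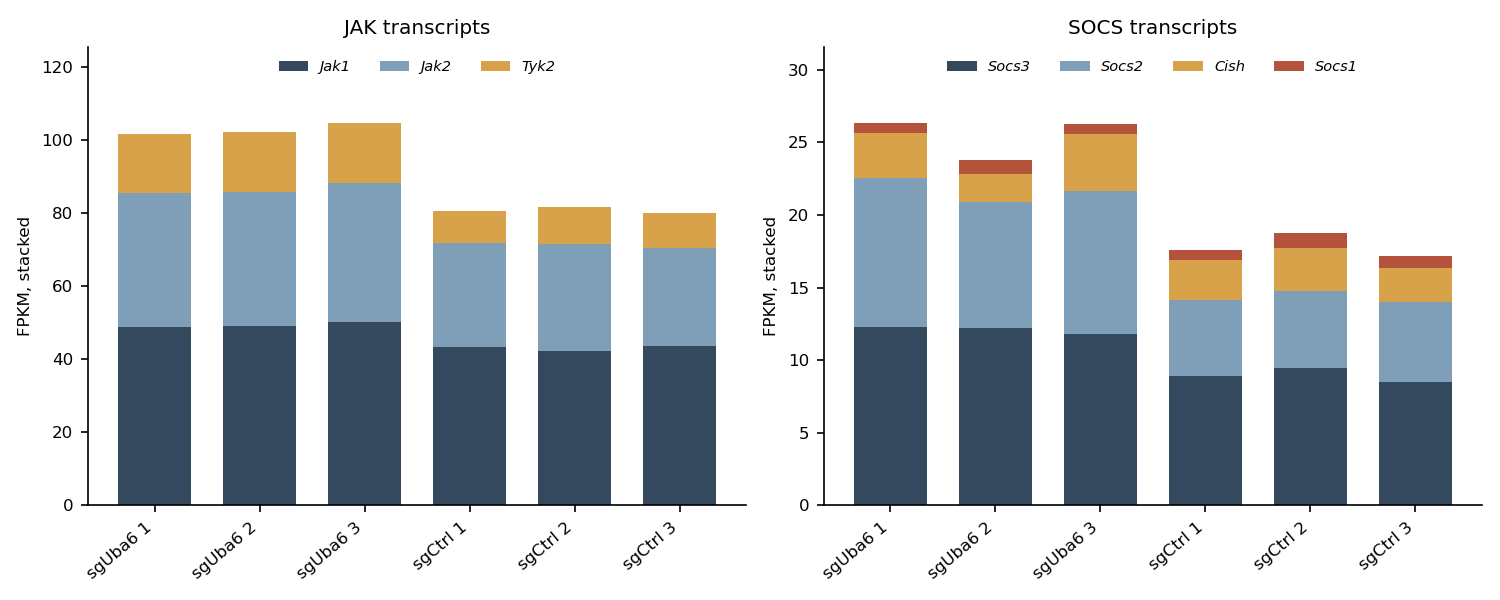
Stacked FPKM of the 3 kinase genes and of the 4 feedback genes in each library, sgUba6 libraries left of sgCtrl libraries. Each bar is 1 library and each colour a gene. The kinase sum averaged 103 FPKM in sgUba6 and 80.7 FPKM in sgCtrl, and the sum of *Socs1*, *Socs2*, *Socs3* and *Cish* 25.5 FPKM in sgUba6 and 17.8 FPKM in sgCtrl.

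gp130 is the signal-transducing chain shared by the IL-6, IL-11, LIF, oncostatin M, CNTF and cardiotrophin receptors, and OSMR joins it to bind oncostatin M. Neither chain passed the test, and their differences ran in opposite directions. *Il6st* (ENSMUSG00000021756, chr13:112464070-112510086, plus strand) was at 21.4, 16.9 and 20.7 FPKM in sgUba6, against 24.2, 22.8 and 23.4 FPKM in sgCtrl. All 3 sgUba6 libraries were below all sgCtrl libraries, with sgUba6 replicate 2 the farthest. The log2 fold change was -0.26 (SE 0.09, 95% interval -0.47 to -0.04), and at a limma adjusted p of 0.0523 it lay just outside the threshold. The call changed with the setting: *Il6st* passed without sgUba6 replicate 1 (log2 fold change -0.32, adjusted p = 0.0367), under median-of-ratios scaling (0.0456) and under the replicate block (0.041). It did not pass under the other 11 settings, and without sgUba6 replicate 2 its log2 fold change was -0.15 (adjusted p = 0.0633). *Osmr* (ENSMUSG00000022146, chr15:6813577-6874969, minus strand) was at 4.29, 3.90 and 4.07 FPKM in sgUba6, against 3.28, 3.37 and 3.89 FPKM in sgCtrl. The groups were separated by less than 0.01 FPKM, since sgCtrl replicate 3 almost met the lowest sgUba6 library. Its log2 fold change was 0.20 (SE 0.09, 95% interval -0.01 to 0.40, limma adjusted p = 0.104). Without sgCtrl replicate 3 the same gene had a log2 fold change of 0.26 and an adjusted p of 0.0461, and under quantile normalization a log2 fold change of 0.09 and an adjusted p of 0.412. Taken as a ratio within each library, *Osmr* to *Il6st* was 0.200, 0.231 and 0.197 in sgUba6, against 0.135, 0.148 and 0.166 in sgCtrl. The ratio was above every control value in all 3 sgUba6 libraries, with means of 0.209 ± 0.0186 in sgUba6 and 0.150 ± 0.0156 in sgCtrl (SD, n = 3 each).

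Around these chains, the partner receptors and the ligands of the family were read in the same way. Of 11 receptor chains on the list, *Il6st* and *Osmr* among them, 8 were in the table and 6 were tested: 1 was higher in sgUba6, none was lower and 5 did not pass. Of the 6, 16.7% were thus called, beside 47.4% of all genes tested. At an unadjusted p under 0.05, 2 were higher and 2 lower, and under other settings the number lower at the adjusted threshold reached 2 (median-of-ratios scaling). *Clcf1*, a ligand of the CNTF receptor, was at 7.64, 7.22 and 11.0 FPKM in sgUba6, against 5.37, 5.92 and 5.44 FPKM in sgCtrl. It was higher in all 3 sgUba6 libraries (log2 fold change 0.56, SE 0.15, limma adjusted p = 0.0203), but it lost the call without sgCtrl replicate 1 (adjusted p = 0.0585) or without sgCtrl replicate 3 (adjusted p = 0.057). *Cntfr*, the chain that binds CNTF, was at 2.43, 1.36 and 1.66 FPKM in sgUba6, against 0.556, 1.21 and 0.741 FPKM in sgCtrl. It was called (log2 fold change 0.80, SE 0.23, limma adjusted p = 0.0268), yet it kept the call under only 8 of 14 other settings, with adjusted p-values of 0.0138 to 0.0777. *Cntfr* did not pass without sgUba6 replicate 1 or 3, or without sgCtrl replicate 1 or 3.

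*Il6ra*, the chain that binds IL-6 itself, was at 3.48, 3.71 and 4.11 FPKM in sgUba6, against 4.68, 4.31 and 4.45 FPKM in sgCtrl. Like *Il6st* it lay below the controls in every sgUba6 library without being called (log2 fold change -0.23, SE 0.08, limma adjusted p = 0.0578). *Il6ra* was called under 4 of 14 other settings, with its adjusted p between 0.0158 (quantile normalization) and 0.154 (without sgUba6 replicate 1) over all of them. *Il11ra1*, the IL-11 receptor, overlapped between groups (log2 fold change 0.06, adjusted p = 0.607), with 2.63, 2.42 and 2.62 FPKM in sgUba6, against 2.70, 2.38 and 2.22 FPKM in sgCtrl. *Crlf2*, a listed chain that belongs to the TSLP receptor and does not use gp130, was higher in every sgUba6 library without passing (log2 fold change 0.56, adjusted p = 0.0699). Its adjusted p was 0.0144 under the replicate block, and its log2 fold change was 0.34 without sgCtrl replicate 3. *Lepr* and *Il27ra* were below the filter, with at most 0.0463 FPKM and 0.383 FPKM in any library. *Lifr*, which pairs with gp130 for LIF, and *Il11ra2* and *Il31ra* were not analysed here.

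The ligands had 8 of 11 genes in the table and 4 tested, of which *Lif* and *Clcf1* were higher in sgUba6 and none was lower. That is a called share of 50%, beside 47.4% of all genes tested. *Lif*, leukaemia inhibitory factor, had the highest level of the 4, with 23.8, 22.0 and 23.4 FPKM in sgUba6, against 15.9, 17.7 and 16.9 FPKM in sgCtrl. The groups stood clearly apart (log2 fold change 0.45, SE 0.06, limma adjusted p = 0.000909). *Ctf1*, cardiotrophin 1, and *Cntf*, ciliary neurotrophic factor, overlapped between groups, with adjusted p-values of 0.897 and 0.327. *Il11* was below the filter and was not tested, but its 3 sgUba6 libraries read 0.407, 0.550 and 0.398 FPKM, against 0.0730, 0.0543 and 0.0521 FPKM in sgCtrl. *Il6* was at 0.293, 0.173 and 0.0976 FPKM in sgUba6, against 0.0390, 0.120 and 0.122 FPKM in sgCtrl, with overlap. With no filter on low values 4 ligands were called higher. *Osm*, the ligand of OSMR, was listed at 0 in all 3 sgUba6 libraries, against at most 0.0293 FPKM in sgCtrl. *Ebi3*, a subunit of IL-27, was at 0.0638, 0.0800 and 0.0979 FPKM in sgUba6 and was listed at 0 in all 3 sgCtrl libraries. *Ctf2*, *Il27* and *Il31* were not analysed here.

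**Figure D3:**
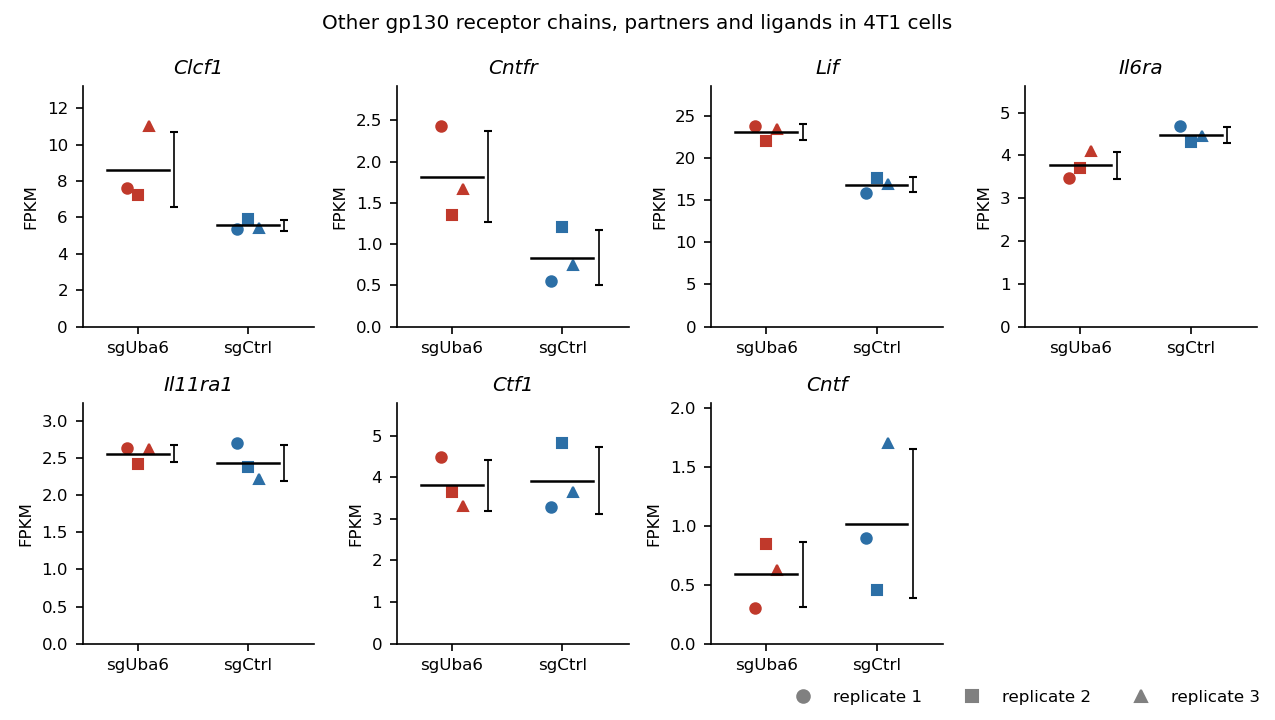
FPKM of partner chains and ligands of the gp130 family in each library, sgUba6 left of sgCtrl in every panel. Points are libraries, lines are means and bars are SD (n = 3 each). *Lif*, *Clcf1* and, by a thin margin, *Cntfr* separate with sgUba6 higher, and *Il6ra* separates with sgUba6 lower, whereas *Il11ra1*, *Ctf1* and *Cntf* overlap.

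STATs and interferon regulatory factors act on many feedback genes through short elements near the start site, and the windows of *Socs3*, *Socs1* and *Cish* are shown because they carry such letters. Windows of 250 bases before to 50 bases after the start site, from RefSeq on GRCm38.p6, were found for 9 of the 10 genes (10 windows, *Pim1* with a pair), and *Socs2* is named only. They were searched on both strands for the STAT element GAS (TTCNNNGAA), present in 8.3% of 32851 such windows, and for a core of the interferon-stimulated response element (GAAANNGAAA), present in 3.44%. GAS was found in *Socs3* at position -154 and in *Cish* at positions 1 and 12, counted from the RefSeq start site. The response element core was found in *Socs1* at positions -83 and -77, as an overlapping pair, counted likewise. The windows of *Socs3* and *Cish* lay inside the gene positions given below, so these start sites are not the outermost ones. The windows of *Jak1*, *Jak2*, *Tyk2*, *Il6st*, *Osmr* and *Pim1* held neither string of letters. A match is a description of the letters and not evidence of binding. Capitals mark the matches, and each line runs 5′ to 3′ on the strand of the gene: *Socs3* at chr11:117969367-117969616, minus strand, *Socs1* at chr16:10785537-10785786, minus strand, and *Cish* at chr9:107296654-107296683, plus strand.
Socs3: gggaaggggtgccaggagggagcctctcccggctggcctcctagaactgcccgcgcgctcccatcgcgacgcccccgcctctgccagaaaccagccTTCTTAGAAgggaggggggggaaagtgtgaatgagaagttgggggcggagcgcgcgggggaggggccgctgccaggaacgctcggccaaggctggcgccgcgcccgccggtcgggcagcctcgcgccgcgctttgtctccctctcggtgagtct
Socs1: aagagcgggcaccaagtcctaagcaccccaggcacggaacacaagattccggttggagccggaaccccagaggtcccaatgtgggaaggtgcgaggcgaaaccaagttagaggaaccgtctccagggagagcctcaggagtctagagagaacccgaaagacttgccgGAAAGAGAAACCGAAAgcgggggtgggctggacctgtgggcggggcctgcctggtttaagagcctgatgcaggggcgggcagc
Cish: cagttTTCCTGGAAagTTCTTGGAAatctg

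SOCS3 binds gp130 and JAK1, JAK2 and TYK2 and is the main brake on IL-6 and LIF signals, whereas SOCS2 and CISH act mostly on growth hormone and prolactin receptors and STAT5. Of the 4 feedback genes *Socs2* and *Socs3* rose in sgUba6 cells, and *Socs1* and *Cish* did not pass the test. *Socs2* (ENSMUSG00000020027, chr10:95385362-95417180, minus strand) was at 10.3, 8.71 and 9.81 FPKM in sgUba6, against 5.23, 5.28 and 5.49 FPKM in sgCtrl. It was 1.802 times the control mean (log2 fold change 0.79, SE 0.08, 95% interval 0.61 to 0.97, limma adjusted p = 0.000238). A near-identical copy, Gm9847, shares 99.7% of its bases with *Socs2* over 599 bases and was at 0 to 0.135 FPKM, so a small part of either value could be miscounted. *Socs3* (ENSMUSG00000053113, chr11:117966079-117970047, minus strand), the gene with a GAS element at position -154 in the sequence above, was at 12.3, 12.2 and 11.8 FPKM in sgUba6, against 8.95, 9.49 and 8.49 FPKM in sgCtrl. It was 1.35 times the control mean (log2 fold change 0.41, SE 0.06, 95% interval 0.27 to 0.55, limma adjusted p = 0.00142).

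*Socs1* (ENSMUSG00000038037, chr16:10782240-10785536, minus strand), a brake on interferon signalling that blocks the kinases directly, had the lowest level of the 10 genes. It was at 0.665, 1.00 and 0.718 FPKM in sgUba6, against 0.669, 1.02 and 0.846 FPKM in sgCtrl. The groups overlapped almost entirely (log2 fold change -0.06, SE 0.15, 95% interval -0.41 to 0.30, limma adjusted p = 0.787). By the same reading of 2 steps as 1 fragment, these levels rest on about 33 to 55 fragments a library. The coefficient of variation between libraries was 22.8% in sgUba6 and 20.9% in sgCtrl, against a counting error of 13.5% to 17.5%. *Cish* (ENSMUSG00000032578, chr9:107296026-107302784, plus strand), with its pair of GAS elements, was at 3.069, 1.904 and 3.952 FPKM in sgUba6, against 2.714, 2.954 and 2.385 FPKM in sgCtrl. The sgUba6 libraries lay on both sides of the controls (log2 fold change 0.08, SE 0.22, 95% interval -0.43 to 0.60, limma adjusted p = 0.779). Its coefficient of variation was 34.5% in sgUba6 and 10.6% in sgCtrl, against a counting error of 7.09% to 10.1%. The sgUba6 value was thus well above counting error and stood at percentile 96.3 among the genes tested. The antisense neighbours of *Cish*, Gm17040 and Gm17041, were at most 0.152 FPKM in any library.

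The sum of the 4 feedback genes was 25.5 ± 1.43 FPKM in sgUba6 and 17.8 ± 0.805 FPKM in sgCtrl (SD, n = 3 each). *Socs2* held 37.7 ± 1.32% of that sum in sgUba6 and 29.9 ± 1.87% in sgCtrl, and *Socs3* held 47.6 ± 3.25% in sgUba6 and 50.3 ± 0.846% in sgCtrl. The wider SOCS family was mixed: of 8 genes 3 were higher, 2 lower and 3 did not pass, with a median log2 fold change of 0.07. Its called share was 62.5%, beside 47.4% of all genes tested. *Socs5*, which has been tied to EGF receptor turnover, was at 33.3, 30.1 and 34.0 FPKM in sgUba6, against 24.6, 25.8 and 25.0 FPKM in sgCtrl (log2 fold change 0.36, SE 0.06, limma adjusted p = 0.00215). *Socs6*, by contrast, was at 12.5, 6.68 and 6.54 FPKM in sgUba6, against 18.0, 18.0 and 19.4 FPKM in sgCtrl. It was lower in all 3 sgUba6 libraries, with sgUba6 replicate 1 nearest to the controls (log2 fold change -1.12, SE 0.23, limma adjusted p = 0.00657). *Socs4* was lower too, with 6.57, 7.30 and 6.98 FPKM in sgUba6, against 9.53, 9.61 and 10.7 FPKM in sgCtrl (log2 fold change -0.49, SE 0.07, limma adjusted p = 0.00151), and *Socs7* had a log2 fold change of 0.06 (adjusted p = 0.422).

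*Pim1* (ENSMUSG00000024014, chr17:29490753-29496112, plus strand) had the largest difference of the 10 genes. PIM1 promotes survival and growth and, needing no activation loop phosphorylation, is set largely by the amount made. It was at 60.5, 57.6 and 72.8 FPKM in sgUba6, against 26.8, 24.9 and 28.3 FPKM in sgCtrl. Every sgUba6 library was far above the highest control, and the mean was 2.39 times the control mean (log2 fold change 1.23, SE 0.09, 95% interval 1.01 to 1.46, limma adjusted p = 9.32e-05). In sgUba6 it had the highest level of the 10 genes, above *Jak1*, whereas in sgCtrl it overlapped *Jak2* below *Jak1*. The other PIM genes did not follow. *Pim2* was at 3.27, 2.86 and 3.20 FPKM in sgUba6, against 4.32, 5.08 and 4.78 FPKM in sgCtrl, and was lower (log2 fold change -0.53, SE 0.09, limma adjusted p = 0.00264). *Pim3* had a log2 fold change of 0.08 (adjusted p = 0.215). The antisense gene Gm26885, which overlaps *Pim1*, was at most 0.304 FPKM.

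Ordered by level in sgUba6, the genes ran *Pim1*, *Jak1*, *Jak2*, *Il6st*, *Tyk2*, *Socs3*, *Socs2*, *Osmr*, *Cish* and *Socs1*, and only the neighbours *Osmr* and *Cish* overlapped. In sgCtrl the order was *Jak1*, *Jak2*, *Pim1*, *Il6st*, *Tyk2*, *Socs3*, *Socs2*, *Osmr*, *Cish* and *Socs1*. There the neighbours *Jak2* and *Pim1* overlapped, as did *Tyk2* and *Socs3*.

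**Figure D4:**
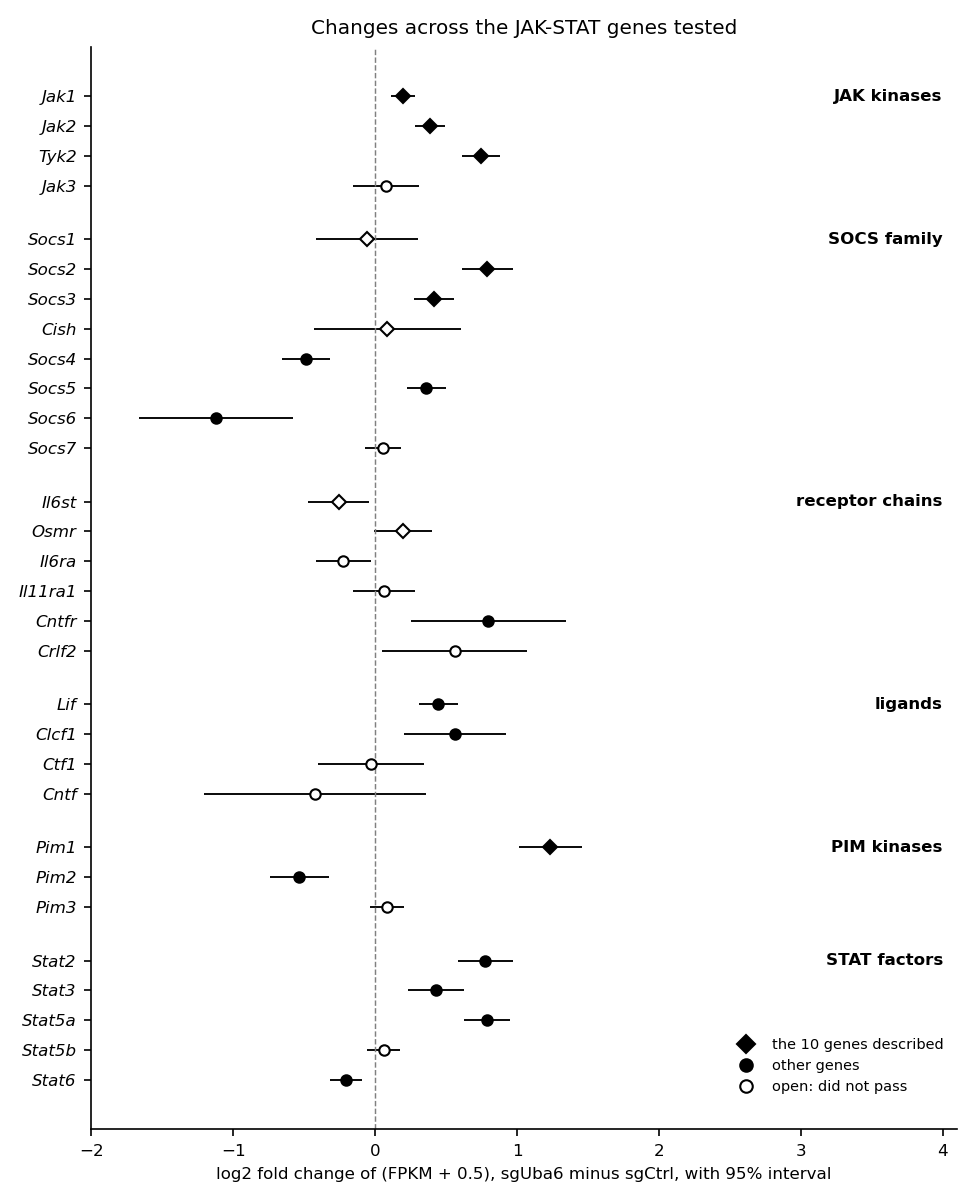
Log2 fold change (sgUba6 minus sgCtrl, on log2(FPKM + 0.5)) with its 95% interval for 30 genes of the JAK-STAT system. Diamonds are the 10 genes described here, circles the related genes, and open symbols did not pass the limma test. *Pim1* at 1.23 lies highest and *Socs6* at -1.12 lowest.

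The STAT factors, on which the kinases act, were tested for 5 genes, of which 3 were higher, 1 was lower and 1 did not pass. *Stat5a*, the mediator of prolactin, was at 12.6, 11.7 and 12.8 FPKM in sgUba6, against 7.45, 6.53 and 6.87 FPKM in sgCtrl (log2 fold change 0.79, SE 0.07, limma adjusted p = 0.000165). *Stat2* had a log2 fold change of 0.78 (adjusted p = 0.000372) and *Stat3* one of 0.43 (adjusted p = 0.00528). *Stat6*, the IL-4 mediator, was lower, at a log2 fold change of -0.20 (adjusted p = 0.0114), while *Stat5b* had a log2 fold change of 0.06 and did not pass (adjusted p = 0.345). The called share was 80% of these 5 genes, beside 47.4% of all genes tested. *Stat4* was not analysed here.

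Other regulators of the pathway, mostly phosphatases, PIAS proteins and adaptors, were tested for 17 genes. Of these 9 were higher, 1 was lower and 7 were not called (median log2 fold change 0.27). The called share was 58.8%, beside 47.4% of all genes. Not all are brakes: the adaptor genes *Sh2b1*, *Stam* and *Stam2* are among the 17. Of these adaptor genes *Stam* was counted as higher (log2 fold change 0.31), and *Sh2b1* and *Stam2* were not called. *Usp18*, which removes ISG15 and blocks the type I interferon receptor, was at 4.38, 4.65 and 4.12 FPKM in sgUba6, against 0.339, 0.561 and 0.293 FPKM in sgCtrl (log2 fold change 2.45, SE 0.13, limma adjusted p = 2.23e-05). In sgCtrl only replicate 2 reached 0.5 FPKM, so *Usp18* passed the filter through its sgUba6 libraries, which favours a difference. *Dusp22*, a phosphatase reported to act on STAT3, was at 5.81, 4.76 and 4.33 FPKM in sgUba6, against 0.505, 0.561 and 0.730 FPKM in sgCtrl (log2 fold change 2.31, SE 0.13, limma adjusted p = 2.88e-05). The gene of the adaptor LNK, *Sh2b3*, had a log2 fold change of 0.84, and that of the phosphatase SHP-1, *Ptpn6*, one of 0.46. The lower gene was *Ptpn2*, a phosphatase of the JAK kinases, singled out after its value was seen (log2 fold change -0.29, limma adjusted p = 0.0275), and its call was lost without sgUba6 replicate 3 (adjusted p = 0.0586), sgCtrl replicate 1 (0.0781) or sgCtrl replicate 2 (0.0812).

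Other receptor chains that couple to these kinases had 12 of 29 genes tested, with 4 higher, 3 lower and 5 not called, and a median log2 fold change of 0.13. The called share of 58.3% stands beside 47.4% of all genes. *Il12rb1*, the IL-12 receptor chain that holds TYK2, was at 2.33, 2.14 and 2.80 FPKM in sgUba6, against 0.423, 0.503 and 0.362 FPKM in sgCtrl (log2 fold change 1.65, SE 0.12, limma adjusted p = 8.53e-05). In sgCtrl only replicate 2 reached 0.5 FPKM, so *Il12rb1* passed the filter through its sgUba6 libraries, which favours a difference. *Ghr*, the growth hormone receptor that signals through JAK2 and is held in check by SOCS2, was at 6.59, 6.73 and 6.04 FPKM in sgUba6, against 10.7, 9.13 and 10.2 FPKM in sgCtrl (log2 fold change -0.59, SE 0.08, limma adjusted p = 0.000997). *Il22ra1* was higher (log2 fold change 0.51, adjusted p = 0.0177, lost without sgUba6 replicate 3 at 0.0576, sgCtrl replicate 1 at 0.0506 and sgCtrl replicate 2 at 0.0501) and *Il10rb* lower (-0.43, adjusted p = 0.00172). Chosen after their values were seen, *Ifnar1* and *Ifngr2* were also higher, both at a log2 fold change of 0.32, and *Il13ra1* was lower at -0.32.

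Genes known as STAT3 or STAT5 targets in other systems had 29 of 40 tested, with 14 higher, 5 lower and 10 not called and a median log2 fold change of 0.32. The called share was 65.5%, beside 47.4% of all genes. *Icam1*, *Steap4* and *Slco4a1* were below 0.5 FPKM in all sgCtrl libraries, entered the test only through sgUba6 and so had to differ. Of the other 26 genes 11 were higher and 5 lower. The higher ones included *Lcn2*, the iron-siderophore carrier lipocalin 2, at 90.1, 80.1 and 84.9 FPKM in sgUba6, against 14.1, 15.2 and 12.8 FPKM in sgCtrl (log2 fold change 2.56, SE 0.07, limma adjusted p = 4.29e-06). *Mmp9*, a secreted gelatinase, averaged 171 ± 7.24 FPKM in sgUba6 and 38.0 ± 0.703 FPKM in sgCtrl (log2 fold change 2.16, limma adjusted p = 1.15e-06), and *Junb* had a log2 fold change of 1.09. *Slco4a1*, an organic anion transporter, was at 0.732, 0.969 and 0.779 FPKM in sgUba6, against 0.155, 0.123 and 0.146 FPKM in sgCtrl. The 5 lower genes, named after their values were seen, were *Myc*, *Mcl1*, *Ccnd1*, *Birc5* and *Nfil3*, with log2 fold changes between -0.48 and -0.18, and they include cell cycle and survival genes. Without sgUba6 replicate 1, 2 or 3 the number of higher target genes was 10, 9 or 10 in place of 14. With a filter of 1 FPKM it was 11. Each of these settings also removed *Icam1*, *Steap4* and *Slco4a1* from the test, so the number to set beside them is the 11 of the other 26 genes.

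Immediate early genes, which respond within minutes to many stimuli and to handling, differed in the same libraries: of 19 tested 13 were higher, 4 lower and 2 not called, a called share of 89.5% beside 47.4% of all genes. They summed to 784 to 829 FPKM in sgUba6, against 638 to 707 FPKM in sgCtrl. Without *Junb* the sums were 504 to 532 FPKM in sgUba6 and 503 to 558 FPKM in sgCtrl, which overlap. Within these sums genes of high level moved both ways. *Ccn2* averaged 77.3 FPKM in sgUba6 and 137 FPKM in sgCtrl, whereas *Ier3* averaged 119 FPKM in sgUba6 and 59.4 FPKM in sgCtrl. The 4 lower genes, named after their values were seen, were *Myc*, *Atf3*, *Ccn1* and *Ccn2*, and the 4 with the largest differences were *Junb*, *Klf2* (log2 fold change 1.06), *Ier3* (1.00) and *Fos* (0.88). In sgCtrl *Klf2* reached 0.5 FPKM in replicate 3 only, so it passed the filter through its sgUba6 libraries, which favours a difference. The part of the immediate early genes in the differences of *Pim1*, *Socs3* and *Lif* was not tested. The leukocyte marker sum was also higher in sgUba6, most of it *Cd68*, and so was the fibroblast and endothelial sum, most of it *Pdgfra*. *Csf1r* and *Col1a1*, from these lists, were higher too. Both were below 0.5 FPKM in all sgCtrl libraries, entered the test only through sgUba6 and so had to differ. Of the other markers in the table, *Pecam1* was lower in sgUba6, and *Ptprc*, *Lyz2* and *Dcn* were at or near 0 in every library. The source of these differences was not tested.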

How the data were processed

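RNA-seq libraries of *Uba6*-null (3) and control (3) 4T1 cells were used. The authors deposited FPKM values for every gene and library, and also the results of their own test of KO against WT (fold change, p-value, q-value), which were not used. The study's methods describe read trimming, HISAT2 alignment to GRCm38, StringTie assembly and FPKM estimation with Cuffdiff. The submitters' processing notes name CASAVA 1.8, Trimmomatic, HISAT2, RSEM and edgeR with mm10. The sources used here leave unstated which pipeline produced the FPKM.

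The filter asked for 0.5 FPKM or more in 3 or more of the 6 libraries and kept 12190 of 19255 genes. Groups were compared on log2(FPKM + 0.5) by limma-trend (limma 3.58.1, R 4.3.3), and p-values were adjusted by the Benjamini-Hochberg method across the kept genes (threshold 0.05). The FPKM were not whole reads, so no count test was run. Depth was read from the commonest spacing of FPKM times transcript length among genes with 1 transcript, with the most frequent value, at 2 steps, taken as 1 fragment. This is approximate (43.4% to 48.5% of values between 0.01 and 0.3 lay within 0.1 step of a multiple of 1 step), and taking 1 step as 1 fragment would give 2 times as many fragments. Positions are from GENCODE M21 (GRCm38), promoter windows from RefSeq (GRCm38.p6), and near-identical copies were found with blastn 2.17.0 (at least 95% identity over 200 bases).

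The genes, the lists and the alternatives were chosen with earlier results of these data known. The text names every gene of the kinase, SOCS, PIM, gp130 and STAT lists and, of each other list, up to 4 called genes with the largest change. Some genes of these lists are not reported here, and the lists are counted without them. Alternatives were the pseudocount, the filter, the scaling, the trend, a replicate block and each library left out.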

Additional observations from a re-analysis of the deposited data

How the results depend on the processing

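The 6 called genes of the set (*Jak1*, *Jak2*, *Tyk2*, *Socs2*, *Socs3* and *Pim1*) were called under all 14 alternatives. The number of the 10 genes that were lower was 0, and 1 (*Il6st*) under median-of-ratios scaling (limma adjusted p = 0.0456) and under the replicate block (0.041), and it ranged from 0 to 1 with each library left out (1 without sgUba6 replicate 1). The number higher ranged from 6 to 7 with each library left out. Over all genes the number higher ranged from 2264 to 2698 and the number lower from 2291 to 2477 with each library left out. The change in the share of *Jak1* ranged from -5.98 to -4.76 percentage points, and that in the ratio of *Osmr* to *Il6st* from 0.0489 to 0.0679.

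Some log2 fold changes of genes that were not called changed sign. Under quantile normalization *Cish* was -0.0535 and *Il11ra1* -0.0939. With each library left out in turn, *Socs1* ranged from -0.168 to 0.0364, *Cish* from -0.1167 to 0.3279, *Jak3* from -1e-04 to 0.141 and *Ctf1* from -0.1392 to 0.113. The cause was not tested. A filter of 1 FPKM removed *Socs1*.

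Taken over all genes tested, libraries of the same number did not deviate together (correlations 0.0156, -0.0567 and -0.0223). A shared preparation that moved only some genes could be missed by this check, so pairing is not excluded. With the replicate block, 2718 genes were higher and 2552 lower, against 3014 and 2769 without it.

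The FPKM give no counts, so counting error is known only roughly. It weighs most on *Socs1* and *Cish*. The labels do not say whether the 3 libraries of a group are separate cultures. The lines are edited cell populations, and differences between them that do not come from *Uba6* cannot be told apart from those that do. mRNA levels do not show phosphorylation of the kinases, receptors or STATs.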
